A study of Mus musculus with 9 samples.

Results

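SAMP mice aged 25 weeks with severe ileitis were compared with AKR mice of the same age in RNA taken from the stem cell niche of the ileal crypt. SAMP/YitFc (SAMP) is an inbred mouse strain that develops a spontaneous ileitis resembling Crohn's disease, and AKR is the strain it is set against. The comparison used 6 of the 9 libraries of the series, 3 of SAMP mice aged 25 weeks (SAMP 25 wk) and 3 of AKR mice aged 25 weeks (AKR 25 wk). The third group, 3 libraries of SAMP mice aged 5 weeks (SAMP 5 wk), is given beside the results and adds to the estimate of the spread. The labels give the genotype of all 9 as wild type, SAMP 25 wk as highly diseased, and SAMP 5 wk and AKR 25 wk as free of inflammation. No treatment and no sex is given. The niche was cut out of small intestine by laser microdissection and its total RNA was sequenced, with 3 independent samples per group. The labels also hold a line on crypt culture, and how it bears on the captured tissue is not stated. Strain and ileitis differ together in SAMP 25 wk against AKR 25 wk, so their effects cannot be told apart in it. Of the 18220 rows of the table, 11789 genes averaged at least 1 FPKM in the 6 libraries and were tested. FPKM is a fragment count scaled for transcript length and sequencing depth.

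The crypt is the proliferating pocket of the intestinal epithelium. Stem cells marked by Lgr5 sit at its base between Paneth cells, which secrete defensins, lysozyme and growth signals, and their daughters become absorptive enterocytes or secretory cells as they move upward. The secretory cells are Paneth cells, mucus-making goblet cells, hormone-making enteroendocrine cells and tuft cells, chemosensory cells that release interleukin-25. In a type 2 immune response interleukin-13 from lymphoid cells acts on the epithelium, where it is known to raise the numbers of tuft and goblet cells and the expression of Retnlb and Clca1.

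The 6 libraries held an estimated 7420000 to 8850000 reads each, which leaves genes around 1 FPKM with few reads behind them. The crypt-base identity of the tissue was seen in its markers. Lgr5 was at 9.62, 14.3 and 13.2 in SAMP 25 wk, against 16.3, 11.2 and 20 in AKR 25 wk, and Lyz1, the Paneth cell lysozyme, was at 8021, 9141 and 5435 in SAMP 25 wk, against 26581, 15074 and 36165 in AKR 25 wk. AKR 25 wk replicate 2 stood apart. The summed FPKM of 25 villus enterocyte genes was 615, 295 and 402 in SAMP 25 wk, 839, 624 and 623 in SAMP 5 wk and 926, 7031 and 707 in AKR 25 wk, so that replicate 2 was well above the other libraries. Apoa1, an apolipoprotein of enterocytes, was at 13.3, 1364 and 5.92 in AKR 25 wk. The counts are therefore also given without that library, and called genes where its absence ended the call or moved the value by over 1.5 times. SAMP 25 wk replicate 3 had Xist, the RNA that silences an X chromosome in females, at 177 FPKM, against 0.53 and 0.32 in the other SAMP 25 wk libraries and 0.38 to 0.42 in AKR 25 wk. Its Y-linked Eif2s3y was at 0.14 FPKM, against 17.1 or more in the 5 other libraries compared, so that library is of another sex by these genes. The labels name biological replicates and no batch.

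In limma's moderated test on log2(FPKM + 1), 351 of 11789 genes passed a Benjamini-Hochberg adjusted p of 0.05, which is 2.98% of those tested. Of these, 191 were higher in SAMP 25 wk (1.62%) and 160 were lower (1.36%). Some gene lists below had a single call, at a share near that of all tested genes. Among them were cell cycle (3.57%), unfolded protein response (3.85%), crypt-base stem cell (4.35%) and interferon-stimulated genes (4.35%). Tight junction (5.56%) and fibroblast and matrix genes (5.88%) were others. A single call in such a list is a result about that gene and not about the list. The 3 SAMP 25 wk libraries did not overlap the 3 AKR 25 wk libraries for any of the 351, whereas groups without overlap made up 19.3% of all tested genes, 6.64% with SAMP 25 wk higher and 12.6% with it lower. At an unadjusted p under 0.05 there were 1848 genes. The changes were large, at least 2 on the log2 scale in 61 of the rises and 45 of the falls, which is 106 of the 351. Over all tested genes the median change was -0.15, and it lay between -0.29 and -0.002 over the scalings tried, so the values below are relative to a centre slightly under 0. The share of higher calls, 54.4% of 351, moved with the scaling. It was 67.0% of 452 with equal medians and 64.5% of 502 with quantile normalization. Rescaling each library to the same total (TPM) gave 46.6% of 365, and rescaling without ribosomal RNA and alpha-defensin rows gave 28.3% of 639. That last rescaling left out only rows with an alpha-defensin name. The abundant rows without a name, described below, stayed in its total.

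Without AKR 25 wk replicate 2, 232 genes passed (1.97%), 122 higher (1.03%) and 110 lower (0.933%). They included 212 of the 351, 115 higher and 97 lower. None of the 351 changed sign, and 5 had a change smaller by more than 1.5-fold, while 1 had one larger by that much. The 20 genes called only without it included the enterocyte genes Mttp and Pck1, the peptide hormone gene Pyy and the Paneth-related Cd177. Without SAMP 25 wk replicate 3, 195 passed, 187 of them among the 351, and no gene of the 351 changed sign.

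**Figure D1:**
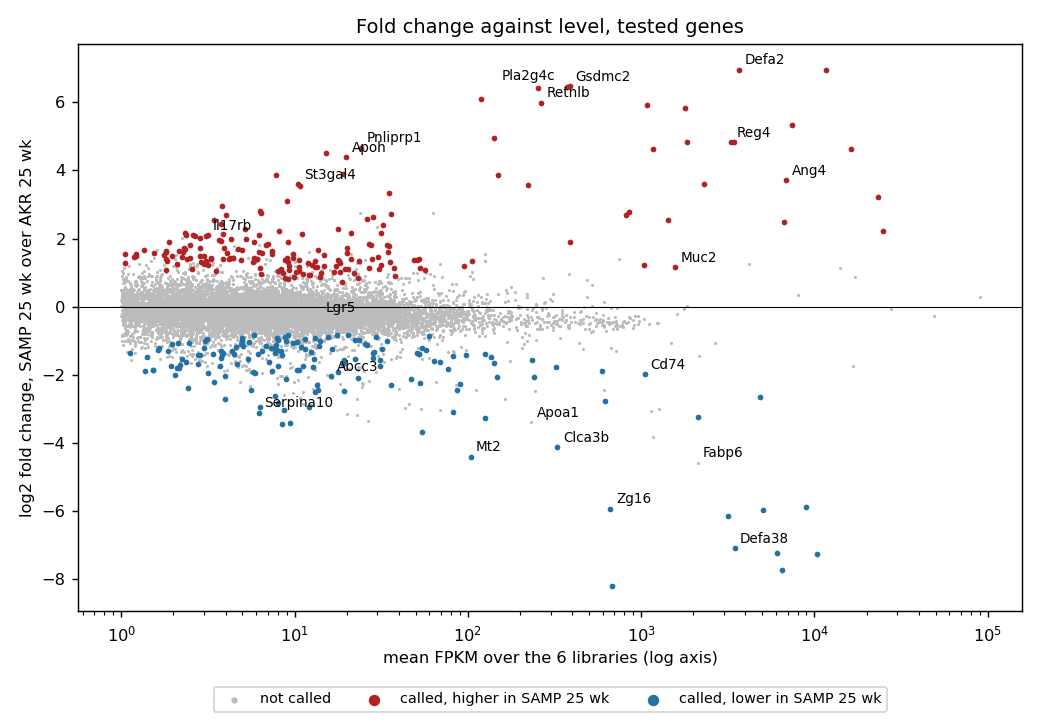
Each point is 1 of 11789 tested genes, with its mean FPKM over the 6 libraries on a log axis and its log2 fold change of SAMP 25 wk over AKR 25 wk. Red points are the 191 genes called higher and blue points the 160 called lower. Alpha-defensins, gasdermin C genes, Pla2g4c, Retnlb, Reg4 and Zg16 are among the abundant genes with wide changes.

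**Figure D2:**
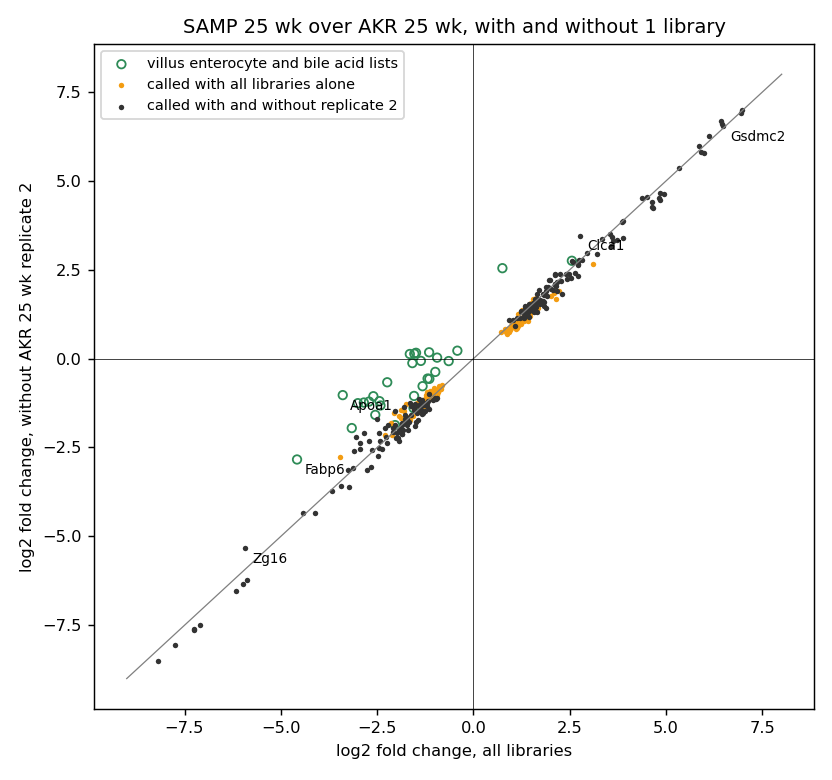
Log2 fold changes of the 351 called genes with all libraries (horizontal) and without AKR 25 wk replicate 2 (vertical), with tested members of the villus enterocyte and bile acid lists as open circles. The called genes lie near the line of equality and keep their sign, while Apoa1 moves to -1.03 without that library, against -3.39 with it, and Fabp6 to -2.84, against -4.58.

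The gasdermin C genes and the phospholipase gene Pla2g4c had some of the largest rises. Gasdermins are proteins whose cut N-terminal part forms pores in membranes, and the gasdermin C genes of the mouse lie in 1 cluster. All 5 tested genes of the cluster (chr15:63775971-63925453, GRCm38) were higher in SAMP 25 wk, namely Gsdmc, Gsdmc2, Gsdmc3, Gsdmc4 and the pseudogene Gsdmcl-ps. Gsdmc2 was at an FPKM of 1204, 475 and 630.4 in SAMP 25 wk, 173, 23.3 and 42.6 in SAMP 5 wk and 6.99, 7.84 and 6.37 in AKR 25 wk. Every SAMP 25 wk library was far above the AKR 25 wk libraries, and the SAMP 5 wk libraries lay between them with replicate 1 highest. The log2 fold change of SAMP 25 wk over AKR 25 wk was 6.47 ± 0.57 (SE), with an adjusted p of 4.56e-05, and 6.54 without AKR 25 wk replicate 2. Gsdmc4 was at 918, 218 and 372 in SAMP 25 wk, 89.1, 10.2 and 15.3 in SAMP 5 wk and 3.03, 5.91 and 3.18 in AKR 25 wk. This gave a log2 fold change of 6.43 ± 0.68. Gsdmc3 rose by 6.11 ± 0.53 and Gsdmc, the least abundant of the 4, by 3.87 ± 0.34. The 4 genes are near copies of each other, so reads may have been shared between them and the value of each single gene is uncertain. SAMP 5 wk over AKR 25 wk, which shares the AKR libraries, gave log2 fold changes of 2.82 for Gsdmc2 (adjusted p = 0.0601) and 2.34 for Gsdmc3 (adjusted p = 0.109). Neither passed. That comparison differs in age as well as strain.

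Of 24 tested members of the gasdermin and inflammatory cell death list, the 4 gasdermin C genes rose and 2 members fell. The first was Gsdme, another pore former, at 5.41, 1.62 and 4.61 in SAMP 25 wk, against 18.8, 35.3 and 14.7 in AKR 25 wk (log2 fold change -2.30 ± 0.37). The other was Casp4, the inflammatory caspase that senses bacterial lipopolysaccharide in the cytosol, at 14.1, 8.18 and 11.1 in SAMP 25 wk, against 32.2, 38.5 and 30.1 in AKR 25 wk (-1.54 ± 0.25). Gsdmd, the main pore former downstream of Casp4, was at 7.34, 4.92 and 8.32 in SAMP 25 wk, against 11.1, 32.9 and 8.47 in AKR 25 wk and did not pass (adjusted p = 0.251). The list's median was -0.38, and -0.07 without AKR 25 wk replicate 2.

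Pla2g4c encodes a cytosolic phospholipase A2 and was at 1169.9, 489 and 555 in SAMP 25 wk, 51, 7 and 8.5 in SAMP 5 wk and 6.66, 8.56 and 5.46 in AKR 25 wk. The SAMP 25 wk libraries stood far above the other 6, of which SAMP 5 wk replicate 1 was the highest. The log2 fold change was 6.45 ± 0.58 with all libraries and 6.60 without AKR 25 wk replicate 2. Of 23 tested eicosanoid and phospholipase A2 genes 6 rose and none fell, or 5 without that library. Besides Pla2g4c these were the secreted phospholipases Pla2g10 (1.54 ± 0.22) and Pla2g2f (1.81 ± 0.30) and the leukotriene synthesis genes Alox5, Alox5ap and Ltc4s, which also mark tuft cells. Pla2g2a, an antibacterial phospholipase of Paneth cells, was far more abundant at 16633, 24824 and 16283 in SAMP 25 wk, against 9639, 5454 and 11797 in AKR 25 wk. It did not pass (log2 fold change 1.15 ± 0.42, adjusted p = 0.198).

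Tuft cell genes were higher in SAMP 25 wk: of 18 tested members of the tuft list, 13 rose and none fell, and the median log2 fold change was 1.42, against -0.15 for all tested genes. The filter takes the mean over both groups, so a member high in SAMP 25 wk alone can be tested through that group. Without the filter 7 of 24 rose and none fell, with a median of 1.27. With pseudocounts of 5 and 0.1 the median over the 18 was 0.66 and 1.90. The whole list's summed FPKM over 24 rows was 122, 129 and 106 in SAMP 25 wk, 50, 35.1 and 37.9 in SAMP 5 wk and 42.1, 31.1 and 47.4 in AKR 25 wk. The SAMP 25 wk libraries were all above the others. SAMP 5 wk and AKR 25 wk overlapped. In bulk tissue a larger number of tuft cells cannot be told apart from more RNA per cell, and this holds for every cell type below. Without AKR 25 wk replicate 2 the median was 1.31 and 5 members passed. Leaving out any other 1 of the 6 compared libraries left 4 to 7 calls, so most single tuft gene calls needed all 6.

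The 5 that passed both ways were Rgs13, Il17rb, Alox5ap, Alox5 and Pou2f3. Pou2f3, the transcription factor that specifies tuft cells, was at 9.87, 9.48 and 10.7 in SAMP 25 wk, 3.18, 3.28 and 4.79 in SAMP 5 wk and 2.38, 1.55 and 4.85 in AKR 25 wk. In log2 terms the change was 1.58 ± 0.29. Il17rb, the receptor subunit for interleukin-25, was at 3.41, 8.5 and 5.44 in SAMP 25 wk, against 0.73, 0.51 and 0.3 in AKR 25 wk. It rose by 2.10 ± 0.32. Rgs13, a regulator of G protein signalling, was at 10.8, 8.19 and 8.66 in SAMP 25 wk, against 1.09, 0.86 and 1.41 in AKR 25 wk. It rose by 2.27 ± 0.34. For each of the 3 the lowest SAMP 25 wk library was above the highest AKR 25 wk library. The other calls included Dclk1 (1.33 ± 0.31), the taste channel gene Trpm5 (1.69 ± 0.34), Ltc4s (2.08 ± 0.45), Avil, Gng13, Plcb2 and Spib. Dclk1, the widely used tuft marker, was at 4.48, 5.93 and 4.07 in SAMP 25 wk, against 1.32, 0.83 and 1.84 in AKR 25 wk. Its call ended under 11 of 22 alternatives. Tuft genes below the expression filter included Chat (0.97, 0.44 and 0.48 in SAMP 25 wk, against 0, 0.04 and 0 in AKR 25 wk) and Gnat3 (0.1, 0 and 0 in SAMP 25 wk, against 0, 0 and 0.53 in AKR 25 wk). Sh2d7, a tuft-enriched gene outside the list that was chosen after its values were seen, was at 8.28, 6.31 and 6.15 in SAMP 25 wk, against 0.58, 1.58 and 0.44 in AKR 25 wk. It rose by 2.12 ± 0.27, with 2.38 without AKR 25 wk replicate 2.

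Of the type 2 immunity, eosinophil and mast cell list, 11 of 28 members with a row were tested, and 4 rose: Retnlb, Il13, Il33 and Kit. The median log2 fold change of the 11 was 0.90. Without the filter it was 0.33 over the 28, of which 4 rose, and with the filter over all 9 libraries 3 of 11 rose. Retnlb, a goblet cell protein induced by type 2 cytokines, was at 734, 302 and 525 in SAMP 25 wk, 228, 41.2 and 100.4 in SAMP 5 wk and 8.14, 4.75 and 7.71 in AKR 25 wk. Its log2 fold change was 5.99 ± 0.51 over AKR 25 wk and 3.69 in SAMP 5 wk over the same AKR libraries (adjusted p = 0.00468). All 3 groups were separate, with SAMP 25 wk highest. Il13 itself was listed at 2.49, 3 and 0.83 in SAMP 25 wk and at 0 in each of the 6 other libraries, so it passed the filter through SAMP 25 wk alone. These values are near the level of a few reads, and the call, with an adjusted p of 0.0308, ended under 8 of 21 alternatives, among them leaving out AKR 25 wk replicate 2 (adjusted p = 0.0501). Il33, an alarmin cytokine, was at 6.88, 6.72 and 5.97 in SAMP 25 wk, against 2.96, 0.86 and 1.11 in AKR 25 wk. Its adjusted p of 0.0202 became 0.0746 without that library. Kit, the stem cell factor receptor of mast cells and of some secretory crypt cells, rose by 1.82 ± 0.29. The interleukin-4 receptor gene Il4ra was at 5.45, 5.2 and 4.65 in SAMP 25 wk, against 2.94, 2.92 and 3.47 in AKR 25 wk. Il13ra1, an interleukin-13 receptor gene, was at 20.2, 13.6 and 13.8 in SAMP 25 wk, against 12.5, 23.1 and 8.67 in AKR 25 wk. Neither passed. Interleukin-25 (Il25) was at 0.11 FPKM in 1 SAMP 25 wk library and listed at 0 in the other 5. Mast cell genes were low: Fcer1a was listed at 0 in all 6 libraries, and Mcpt2 was at 0.51, 2.49 and 0.53 in SAMP 25 wk, against 0.12, 0.86 and 0 in AKR 25 wk. Retnla, a relative of Retnlb, was below the filter at 1.28, 1.72 and 1.11 in SAMP 25 wk and listed at 0 in all 3 AKR 25 wk libraries. In SAMP 5 wk it was at 0, 0 and 5.55, so its highest value was in a SAMP 5 wk library.

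**Figure D3:**
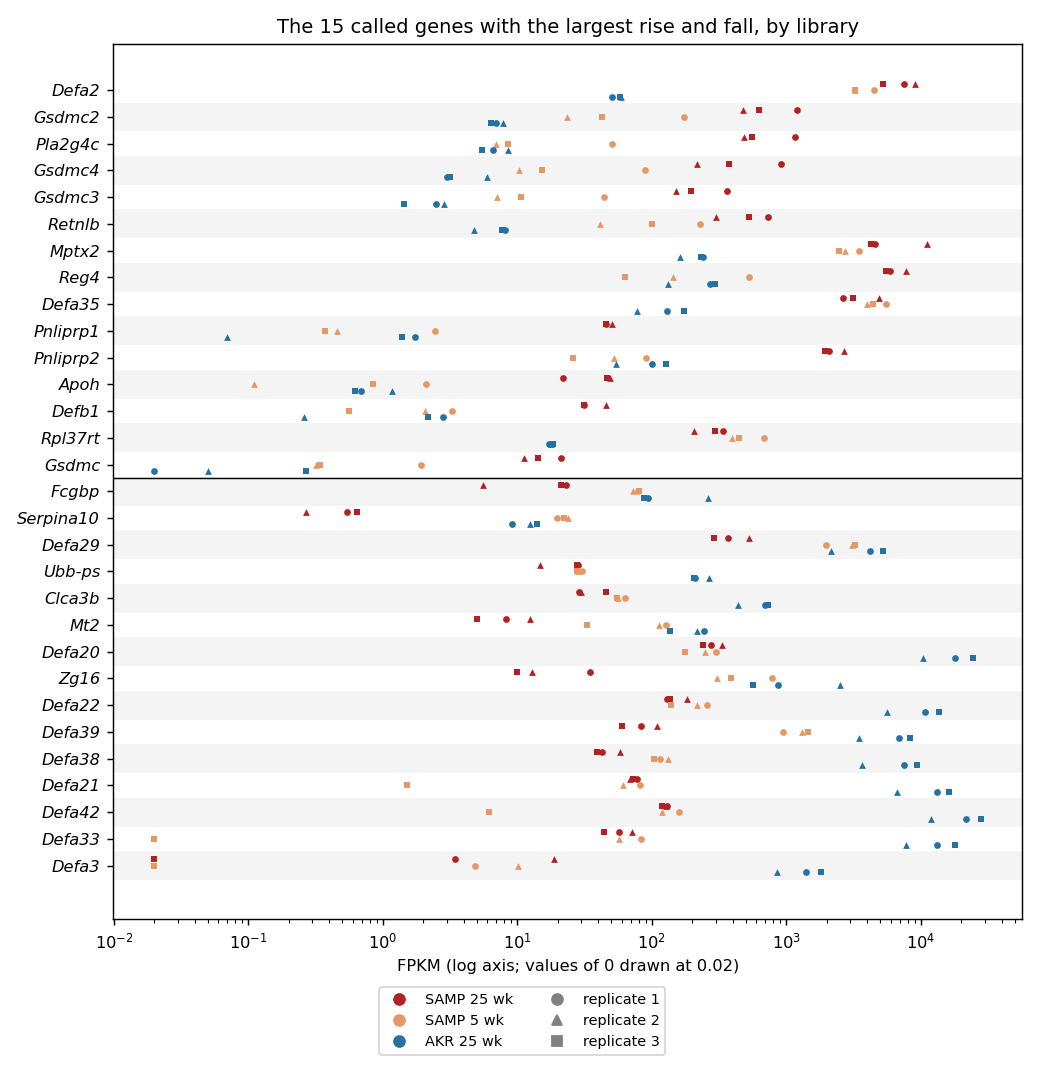
FPKM on a log axis in each of the 9 libraries for the 15 called genes with the largest rise (upper rows) and the 15 with the largest fall (lower rows) among genes with a usual name, with symbols for replicates and values of 0 drawn at the left edge. Colours part the groups: SAMP 5 wk sits near SAMP 25 wk for Defa2, Defa35 and Rpl37rt, and near AKR 25 wk for Reg4, Pnliprp1, Apoh and Serpina10.

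The goblet cell genes split. Of 22 tested members 8 rose and 3 fell, and without AKR 25 wk replicate 2 the counts were 7 and 2. The genes that rose included secreted products and the lineage factor Spdef. Reg4, a regenerating-family lectin of deep crypt secretory cells, was at 5911, 7720.3 and 5491 in SAMP 25 wk, 532, 144 and 63.4 in SAMP 5 wk and 271, 132 and 295 in AKR 25 wk. Spink4, a peptide of goblet and Paneth cells, was at 10631, 14335 and 8932 in SAMP 25 wk, 3936, 1825 and 2137 in SAMP 5 wk and 2012, 1699 and 2266 in AKR 25 wk. Muc2, the main gel-forming mucin, was at 2406, 2181 and 1938 in SAMP 25 wk, 779, 517 and 569 in SAMP 5 wk and 917, 1096 and 898 in AKR 25 wk. In each of the 3 the SAMP 25 wk libraries were the highest of the 9, and SAMP 5 wk overlapped AKR 25 wk in Reg4 and Spink4 and lay below it in Muc2. The log2 fold changes were 4.84 ± 0.61 for Reg4, 2.49 ± 0.37 for Spink4 and 1.16 ± 0.27 for Muc2, and the Muc2 call did not hold without AKR 25 wk replicate 2 (adjusted p = 0.0674). Spdef rose by 1.77 ± 0.31, the kallikrein Klk1 by 1.89 ± 0.27, the tryptase-like Tpsg1 by 2.41 ± 0.39 and Clca1, a mucus-processing protease, by 2.77 ± 0.62. Clca1 was at 2308, 812 and 1230.2 in SAMP 25 wk, against 159, 502 and 89 in AKR 25 wk. AKR 25 wk replicate 2 was the highest AKR library, and without it the log2 fold change was 3.46.

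Zg16, Fcgbp and Tff3, which encode a lectin that binds bacteria, a mucin-binding protein and a trefoil peptide of the mucus layer, fell. Zg16 was at 34.5, 12.9 and 9.96 in SAMP 25 wk, 780, 307 and 391 in SAMP 5 wk and 869.9, 2497 and 569 in AKR 25 wk. On the log2 scale its change was -5.94 ± 0.56, and -5.33 without AKR 25 wk replicate 2. Fcgbp was at 23.2, 5.59 and 21 in SAMP 25 wk, against 93.5, 261 and 88.1 in AKR 25 wk (-3.10 ± 0.49). Tff3 was at 382, 111 and 341 in SAMP 25 wk, against 831, 1194 and 729.8 in AKR 25 wk (-1.88 ± 0.42), with an adjusted p of 0.121 without that library. So the mucus genes Muc2 and Clca1 rose while Zg16, Fcgbp and Tff3 fell in the same libraries. Agr2, a protein disulphide isomerase needed for mucin folding, was at 2275, 1172 and 1858 in SAMP 25 wk, against 1684, 1854 and 1773 in AKR 25 wk. It did not pass (log2 fold change -0.05 ± 0.36). The summed FPKM of the list over 23 rows was 22023 to 28387 in SAMP 25 wk and 7869 to 10690 in AKR 25 wk.

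Several genes of secretion and mucin folding that were chosen after their values were seen rose as well. A4gnt, which caps gland mucins with N-acetylglucosamine, was at 29.2, 31 and 29 in SAMP 25 wk, against 6.39, 2.3 and 9.12 in AKR 25 wk (2.29 ± 0.37). Fkbp11, a folding enzyme of the endoplasmic reticulum, was at 26.3, 26.6 and 25.5 in SAMP 25 wk, against 8.47, 11 and 9.76 in AKR 25 wk (1.34 ± 0.21). Mlph, a granule transport adaptor, was at 28.1, 29.9 and 26.5 in SAMP 25 wk, against 12.6, 12.7 and 11.9 in AKR 25 wk (1.12 ± 0.18). Rep15, a Rab15-binding protein, was at 56.4, 48.5 and 53.4 in SAMP 25 wk, 43.4, 34.9 and 32.6 in SAMP 5 wk and 16, 18.4 and 15.4 in AKR 25 wk. Both SAMP groups lay above AKR 25 wk. Of the 26 tested unfolded protein response genes 1 rose, Ern2, the goblet cell form of the stress sensor Ire1. It was at 55, 85.5 and 77.9 in SAMP 25 wk, against 41.5, 22.4 and 34.4 in AKR 25 wk, and its adjusted p of 0.0499 became 0.159 without AKR 25 wk replicate 2.

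Enzymes that build mucin O-glycans and add sialic acid moved in both directions: of 29 tested, 5 rose and 4 fell, and without AKR 25 wk replicate 2 the counts were 4 and 3. Sialyltransferases of the St3gal family were on both sides. St3gal4 was at 17.9, 21.2 and 21.6 in SAMP 25 wk, 2.06, 1.03 and 0.44 in SAMP 5 wk and 1.01, 0.39 and 0.95 in AKR 25 wk. Its log2 fold change was 3.59 ± 0.29. St3gal6 was at 70.6, 64.8 and 53.8 in SAMP 25 wk, 9.74, 7.3 and 5.33 in SAMP 5 wk and 7.99, 7.77 and 10.3 in AKR 25 wk. This gave a log2 fold change of 2.72 ± 0.23. Both were high in SAMP 25 wk alone, with SAMP 5 wk at the AKR level. In the opposite direction, St3gal1, which sialylates the core 1 O-glycan, was at 1.45, 1.96 and 1.53 in SAMP 25 wk, 11.9, 11.6 and 9.19 in SAMP 5 wk and 6.71, 6.34 and 9.78 in AKR 25 wk (-1.69 ± 0.22). Fut2, which adds the fucose of the H antigen, was at 17.3, 6.74 and 12 in SAMP 25 wk, 7.97, 2.79 and 12.3 in SAMP 5 wk and 0.93, 0.89 and 0.66 in AKR 25 wk, with no overlap between either SAMP group and AKR 25 wk. It rose in SAMP 25 wk, with a log2 fold change of 2.75 ± 0.42, and SAMP 5 wk over the same AKR libraries gave 2.08 and did not pass (adjusted p = 0.0601). B3gnt3, which extends core 1 chains, rose by 1.21 ± 0.21, and St3gal3 by 1.31 ± 0.30. St6galnac1, which makes the sialyl-Tn antigen, fell by 2.30 on the log2 scale, the sulphotransferase Gal3st2 by 2.83 (a change of -2.10 without AKR 25 wk replicate 2) and the ganglioside enzyme B4galnt1 by 1.41. The St3gal3 and St6galnac1 calls did not hold without AKR 25 wk replicate 2 (adjusted p = 0.098 and 0.0744). A further pair was chosen after the values were seen. Gne, the rate-limiting enzyme of sialic acid synthesis, was at 88.7, 53 and 80.4 in SAMP 25 wk, against 25.9, 24.9 and 32.6 in AKR 25 wk (1.36 ± 0.24). Cmah, which turns N-acetyl into N-glycolylneuraminic acid, was at 7.51, 5.34 and 6.14 in SAMP 25 wk, against 20.2, 11.6 and 18.5 in AKR 25 wk (-1.25 ± 0.25).

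Paneth cell genes other than alpha-defensins rose in part: 6 of 18 tested members rose and none fell with all libraries, and without AKR 25 wk replicate 2 another member, Cd177, fell (-1.57). The 6 were the lipase-related genes Pnliprp1, Pnliprp2 and Clps, the ribonuclease Ang4, the pentraxin Mptx2 and the death receptor Tnfrsf21. Pnliprp2, a lipase of galactolipids, was at 2084, 2677 and 1941 in SAMP 25 wk, 91, 52.5 and 25.8 in SAMP 5 wk and 100.2, 54.4 and 128 in AKR 25 wk. Clps, the cofactor of pancreatic lipase, was at 3710.3, 5458 and 3555 in SAMP 25 wk, 524, 500.5 and 395 in SAMP 5 wk and 351, 219 and 504 in AKR 25 wk. Ang4, an antimicrobial ribonuclease of the angiogenin family, was at 11368, 16447 and 10472 in SAMP 25 wk, 2659, 1262 and 1499 in SAMP 5 wk and 1083, 555 and 1419.5 in AKR 25 wk. Every SAMP 25 wk library exceeded every AKR 25 wk library by a wide margin in these genes. The log2 fold changes were 4.62 ± 0.42, 3.62 ± 0.33 and 3.72 ± 0.42, and without AKR 25 wk replicate 2, the library with the lowest levels of the 3 genes in AKR 25 wk, they were 4.27, 3.30 and 3.33. Pnliprp1 rose by 4.67 ± 0.39.

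Mptx2, a mucosal pentraxin of Paneth cells, differed in that SAMP 5 wk was high too, at 4582, 11156 and 4244 in SAMP 25 wk, 3469.7, 2739 and 2467 in SAMP 5 wk and 239, 161 and 234 in AKR 25 wk. Its log2 fold change was 4.85 ± 0.38 in SAMP 25 wk and 3.78 in SAMP 5 wk, each over the same AKR 25 wk libraries. Other defining Paneth genes did not pass. Lyz1 was at 8021, 9141 and 5435 in SAMP 25 wk, 25857, 24396 and 20238 in SAMP 5 wk and 26581, 15074 and 36165 in AKR 25 wk (log2 fold change -1.73 ± 0.45, adjusted p = 0.0656), with the SAMP 25 wk libraries below all others. Mmp7, which activates pro-defensins in the mouse, was at 182, 233 and 163 in SAMP 25 wk, against 142, 101 and 178 in AKR 25 wk. Wnt3, a Paneth cell niche signal, was at 3.26, 6.99 and 5.52 in SAMP 25 wk, against 4.64, 2.29 and 5.24 in AKR 25 wk. The summed FPKM of the list, 48791 to 78659 in SAMP 25 wk and 23680 to 54722 in AKR 25 wk, overlapped between the groups. Because Pnliprp1, Pnliprp2 and Clps are also pancreatic genes, acinar markers were examined. Of 13 rows of the acinar list 6 were tested, and 5 of the 6 had a positive fold change, with a median of 1.06. Clps rose and Zg16 fell, and the other 4, Cela1, Bhlha15, Sycn and Rnase1, did not pass. Cela1, an elastase gene, was at 19.9, 12.4 and 19.5 in SAMP 25 wk, against 11.1, 6.21 and 7.03 in AKR 25 wk (log2 fold change 1.01 ± 0.25). Bhlha15, a factor of secretory cells, was at 20.7, 44.4 and 28.8 in SAMP 25 wk, against 13.1, 8.59 and 20.6 in AKR 25 wk (1.11 ± 0.32). The summed FPKM of the 13 rows was 3634 to 5546 in SAMP 25 wk and 1119 to 2733 in AKR 25 wk, and the groups did not overlap. Most of it came from Clps, itself a gene in question, in SAMP 25 wk, and from Zg16, described above with the goblet cell genes, in AKR 25 wk. The sum therefore does not measure acinar RNA apart from these genes. Among the defining enzymes, Cpa1 and Ctrb1 were listed at 0 in the 3 SAMP 25 wk libraries, and Cel was at 0.06 in 1 of them. The part of acinar RNA in the Pnliprp1, Pnliprp2 and Clps values was not tested.

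Alpha-defensins are short antimicrobial peptides of Paneth cell granules, encoded on chromosome 8 by many near-identical genes whose number differs between mouse strains. Reads of 1 copy may have been counted for another, and reads of AKR and SAMP copies were mapped to GRCm38, the C57BL/6 genome, so single-gene values are uncertain and how far mapping sets them was not tested. Of 24 tested, 6 were higher and 12 lower in SAMP 25 wk, with 5 and 12 without AKR 25 wk replicate 2, and 9 of the 15 named genes with the largest falls were alpha-defensins. Defa2 was at 7458, 9108 and 5233 in SAMP 25 wk, 4514, 3231 and 3258 in SAMP 5 wk and 51, 59.2 and 58.1 in AKR 25 wk. Defa35 was at 2664, 4902 and 3129.5 in SAMP 25 wk, 5534, 3995 and 4412 in SAMP 5 wk and 129, 77.3 and 175 in AKR 25 wk. Both were high in all 6 SAMP libraries and low in all 3 AKR libraries. Defa31, among the most abundant transcripts of the table, was at 32540, 55306 and 38650 in SAMP 25 wk, 16628, 10881 and 12405 in SAMP 5 wk and 4383, 3051 and 6493 in AKR 25 wk, and here SAMP 25 wk exceeded SAMP 5 wk. The log2 fold changes of SAMP 25 wk over AKR 25 wk were 6.96 ± 0.29, 4.83 ± 0.35 and 3.21 ± 0.43. Defa17, Defa26 and Defa40 were also higher, and the Defa17 call did not hold without AKR 25 wk replicate 2 (adjusted p = 0.104).

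The 12 lower members included Defa20, at 276, 334 and 239 in SAMP 25 wk, 301, 247 and 178 in SAMP 5 wk and 18091, 10397 and 24432 in AKR 25 wk. Defa38 was at 42.9, 57.7 and 39.3 in SAMP 25 wk, 116, 132 and 105 in SAMP 5 wk and 7571, 3646 and 9450.2 in AKR 25 wk. Defa42 was at 130.1, 128 and 120.3 in SAMP 25 wk, 159.7, 118 and 6.19 in SAMP 5 wk and 21841, 11860 and 28136 in AKR 25 wk. In these the AKR 25 wk libraries stood above all SAMP libraries of either age. The log2 fold changes were -5.88 ± 0.35, -7.09 ± 0.33 and -7.25 ± 0.88. Defa29 and Defa39 were also lower than in the young SAMP mice. Defa29 was at 368, 533 and 291 in SAMP 25 wk, 1975, 3059 and 3265 in SAMP 5 wk and 4193, 2171 and 5229.6 in AKR 25 wk. On the log2 scale its change was -3.23 ± 0.39 over AKR 25 wk and -2.81 over SAMP 5 wk (adjusted p = 0.00346). Defa39 was at 82.7, 109 and 59.9 in SAMP 25 wk, 951, 1319 and 1441 in SAMP 5 wk and 6956, 3504 and 8367 in AKR 25 wk. Its changes were -6.16 ± 0.36 over AKR 25 wk and -3.88 over SAMP 5 wk (adjusted p = 0.000234). Defa24, Defa30 and Defa5 were abundant in both strains and did not pass. Defa24 was at 15902, 28905 and 21335 in SAMP 25 wk, against 12454, 7480 and 17436 in AKR 25 wk. The summed FPKM of the 26 alpha-defensin rows was 103660, 175350 and 119530 in SAMP 25 wk, 68579, 49182 and 54324 in SAMP 5 wk and 148030, 81753 and 193750 in AKR 25 wk, so the SAMP 25 wk and AKR 25 wk totals overlapped although their members differed. This sum and the counts of higher and lower genes hold only rows with an alpha-defensin name. Rows to which no name could be given stand outside them, and 3 of these, NCBI gene numbers 13216, 13240 and 13222, were among the 10 most abundant called rows. Number 13240 was at 17243, 29989 and 22406 in SAMP 25 wk, 10992, 7686 and 8441 in SAMP 5 wk and 188, 170.1 and 186 in AKR 25 wk. Number 13216 was at 23362, 43484 and 27289 in SAMP 25 wk, 10973, 7100.4 and 7965 in SAMP 5 wk and 1241, 894 and 1648 in AKR 25 wk. Number 13222 was at 16234, 21306 and 6090.1 in SAMP 25 wk, 64259, 68988 and 53191 in SAMP 5 wk and 292, 317 and 336 in AKR 25 wk, and here SAMP 5 wk was the highest group. All 3 were far above AKR 25 wk in both SAMP groups. The beta-defensin Defb1, an epithelial defensin that lies in the same run of called genes on chromosome 8 (chr8:21025545-21795185), was at 31.2, 45.6 and 31.6 in SAMP 25 wk, 3.25, 2.06 and 0.56 in SAMP 5 wk and 2.82, 0.26 and 2.17 in AKR 25 wk. It rose by 3.88 ± 0.43.

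Metallothioneins, small proteins that bind zinc and copper and are induced by metals and stress hormones, fell in SAMP 25 wk. They were the called members of a list of 22 tested metallothionein and zinc transporter genes, whose median was -0.08. Mt2 was at 8.32, 12.5 and 5.05 in SAMP 25 wk, 128, 113 and 33.1 in SAMP 5 wk and 244, 217 and 137 in AKR 25 wk. Mt1 was at 34.6, 37.9 and 20.1 in SAMP 25 wk, 156, 127 and 116 in SAMP 5 wk and 165, 159.7 and 122 in AKR 25 wk. In both genes the highest SAMP 25 wk library was below the lowest of the 6 other libraries. The log2 fold change of Mt2 was -4.41 ± 0.46 (adjusted p = 0.000212) and that of Mt1 -2.27 ± 0.26 (adjusted p = 0.000485), and without AKR 25 wk replicate 2 they were -4.33 and -2.21. SAMP 25 wk over SAMP 5 wk gave -3.12 for Mt2 (adjusted p = 0.00553) and -2.11 for Mt1 (adjusted p = 0.00176). Mtf1, the metal-sensing transcription factor that binds metal response elements, was at 3.4, 3.77 and 3.43 in SAMP 25 wk, against 3.93, 4.08 and 4.54 in AKR 25 wk. Its target Slc30a1, a zinc exporter gene, was at 1.68, 0.75 and 1.6 in SAMP 25 wk, against 3.51, 6.95 and 1.78 in AKR 25 wk. Neither passed.

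The 2 genes that moved together lie side by side on chromosome 8, and the 250 bases before each RefSeq start (GRCm38.p6, plus strand) are shown because metal response elements are the known control sites of this pair. Capitals mark each match to the core TGCACNC or TGCGCNC, searched on both strands, where N is any base.
Mt1, chr8:94178839-94179088: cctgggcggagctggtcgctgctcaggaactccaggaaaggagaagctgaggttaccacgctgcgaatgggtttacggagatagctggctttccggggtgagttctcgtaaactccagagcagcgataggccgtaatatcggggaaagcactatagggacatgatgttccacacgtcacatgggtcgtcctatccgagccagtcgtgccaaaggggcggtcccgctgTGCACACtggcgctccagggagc
Mt2, chr8:94172368-94172617: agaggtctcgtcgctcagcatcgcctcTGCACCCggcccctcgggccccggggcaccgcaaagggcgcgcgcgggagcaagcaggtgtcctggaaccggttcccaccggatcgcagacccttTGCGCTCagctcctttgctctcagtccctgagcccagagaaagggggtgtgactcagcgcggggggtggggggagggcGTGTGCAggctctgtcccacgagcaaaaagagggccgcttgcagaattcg
Mt1 held 1 match in its window and Mt2 held 3, of which 1 was on the other strand. The search covered only these windows, so matches past either end were not counted. The numbers therefore do not compare the full promoters of the pair. Of all 32851 RefSeq windows of this length 21.41% held at least 1 match and 1.26% at least 3. A match describes these letters and does not show that a factor binds there.

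The calcium-activated chloride channel regulator genes Clca1, Clca3a2 and Clca3b lie in 1 cluster (chr3:144780581-145032776), and 3 of its 5 tested genes were called in opposite directions. Clca3b was at 28.8, 29.9 and 45.6 in SAMP 25 wk, 63.2, 56.2 and 55.4 in SAMP 5 wk and 694, 439 and 734 in AKR 25 wk. The log2 fold change was -4.12 ± 0.26. Clca3a2 was at 3.77, 3.84 and 8.4 in SAMP 25 wk, 8.14, 7.66 and 8.52 in SAMP 5 wk and 36.7, 22.4 and 41.3 in AKR 25 wk (-2.48 ± 0.30). Both were lower in all 6 SAMP libraries than in any AKR library, whereas Clca1, described above, was higher. SAMP 5 wk over AKR 25 wk gave -3.36 for Clca3b. Of 18 tested Clca and anion secretion genes 2 rose and 2 fell, and the other rise was Ano1, a calcium-activated chloride channel. It was at 7.07, 3.04 and 4.08 in SAMP 25 wk, against 1.31, 0.52 and 1.11 in AKR 25 wk, and its adjusted p of 0.0312 became 0.101 without AKR 25 wk replicate 2.

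Genes of MHC class II antigen presentation were lower in SAMP 25 wk. Of 11 tested 4 fell and none rose, with the same count without AKR 25 wk replicate 2, and the median was -1.03. Cd74, the invariant chain that escorts class II molecules, was at 253, 468 and 589.7 in SAMP 25 wk, 957, 1072 and 772 in SAMP 5 wk and 2092, 1394 and 1486 in AKR 25 wk. Its log2 fold change was -1.98 ± 0.34. H2-Aa, a class II alpha chain, was at 146, 142 and 146 in SAMP 25 wk, 429.7, 300 and 200.4 in SAMP 5 wk and 567, 550.1 and 392 in AKR 25 wk (-1.77 ± 0.29). SAMP 25 wk and AKR 25 wk did not overlap, and SAMP 5 wk lay between them apart from 1 library that was within the AKR range for H2-Aa. H2-Ab1 fell by 1.46 and the peptide loading gene H2-DMa by 1.74 on the log2 scale. H2-Eb1 was at 24.6, 36.4 and 25.9 in SAMP 25 wk, against 74.7, 33.4 and 59.8 in AKR 25 wk. Ciita, the class II transactivator, was at 1.44, 2.97 and 3.34 in SAMP 25 wk, against 5, 2.61 and 5.78 in AKR 25 wk. Neither passed. In the class II region (chr17:34119693-34344645) 6 of 13 tested genes were called, all lower: H2-DMa, Psmb9, Psmb8, H2-Ab1, H2-Aa and H2-Ea. Class II genes are highly polymorphic between mouse strains, and the part of mapping to the C57BL/6 genome in these values was not tested.

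Of 17 tested class I and immunoproteasome genes 3 fell, the proteasome subunits Psmb8 (-1.39 ± 0.34) and Psmb9 (-1.64 ± 0.38) and the thymus leukaemia antigen H2-T3 (-1.93 ± 0.41), and none of these held without AKR 25 wk replicate 2. Of 23 tested interferon-stimulated genes 1 fell, Bst2, at 0.86, 1.4 and 2.18 in SAMP 25 wk, against 5.94, 4.44 and 5.58 in AKR 25 wk. Its adjusted p was 0.0599 without that library. Some markers of immune cells were lower as well. In the macrophage, dendritic cell and neutrophil list 3 of 18 tested genes fell, Fcer1g (-1.86 ± 0.34), Itgam (-1.22 ± 0.23) and Cd68 (-1.31 ± 0.30), or 2 without AKR 25 wk replicate 2, when Itgam missed the threshold (adjusted p = 0.0501). The list's median was -0.32 with all libraries and -0.69 without AKR 25 wk replicate 2. The list's summed FPKM was 123, 149.9 and 101 in SAMP 25 wk, 469, 289.8 and 263 in SAMP 5 wk and 411, 144 and 216 in AKR 25 wk, with Mpo at 0 in all 6 libraries compared. Of the AKR 25 wk libraries only replicate 2 lay within the SAMP 25 wk range. The summed FPKM of 25 T, B and plasma cell rows was 101 to 113 in SAMP 25 wk and 179.7 to 364 in AKR 25 wk, and 0 of 18 tested genes passed in limma, with 6 at an unadjusted p under 0.05. Without AKR 25 wk replicate 2 the B cell gene Cd79a fell. Their part in the lower class II values was not tested.

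**Figure D4:**
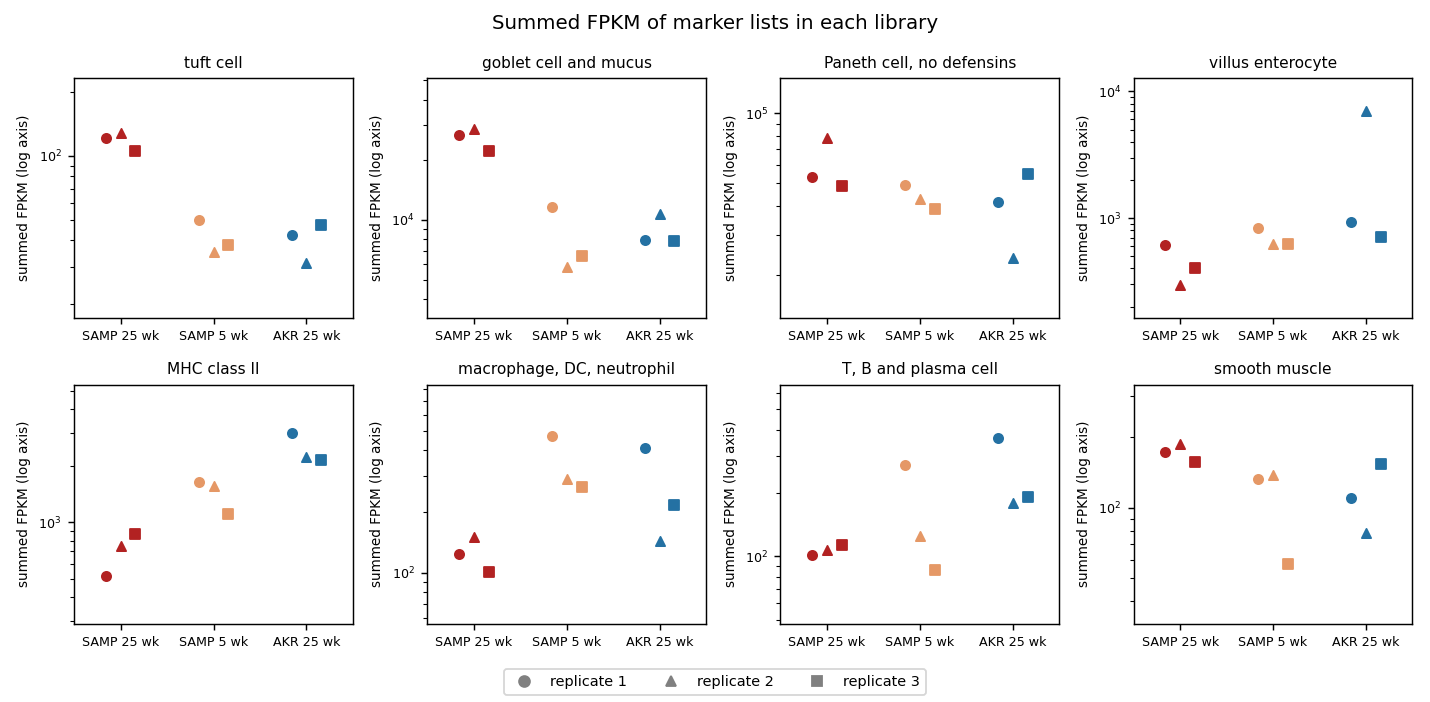
Summed FPKM of 8 marker lists in each library (log axis, symbols for replicates). Tuft and goblet sums are highest in SAMP 25 wk, the villus enterocyte sum of AKR 25 wk replicate 2 stands apart at 7031, and MHC class II sums run from SAMP 25 wk, the lowest, through SAMP 5 wk to AKR 25 wk.

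Antimicrobial and oxidant defence genes of the epithelium had few calls: of 18 tested, Reg4 and Tlr4 rose and Nos2 fell. The list's median was -0.79 with all libraries and -0.09 without AKR 25 wk replicate 2. Without that library Sprr2a1, a small proline-rich protein gene, rose in place of Tlr4. It was at 102, 54.5 and 50.3 in SAMP 25 wk, 20.8, 1.25 and 4.96 in SAMP 5 wk and 1.84, 169 and 1.01 in AKR 25 wk. Its log2 fold change of 2.74 became 4.80 without that library (adjusted p = 0.00514). Sprr2a2, a near copy described below, held the same values in AKR 25 wk replicates 1 and 3. Reads may have been shared between the copies, so the value of each is uncertain. Nos2, the inducible nitric oxide synthase, was at 0.41, 0.92 and 1.67 in SAMP 25 wk, 7.87, 3.72 and 7.83 in SAMP 5 wk and 8.34, 15.9 and 6.33 in AKR 25 wk. The change was -2.44 ± 0.36 on the log2 scale, and Nos2 was lower in every SAMP 25 wk library than in any other library. Tlr4, the lipopolysaccharide receptor, was at 3.79, 4.26 and 3.46 in SAMP 25 wk, against 1.55, 0.89 and 1.39 in AKR 25 wk. Its adjusted p of 0.033 became 0.093 without AKR 25 wk replicate 2. Reg3g, a C-type lectin against Gram-positive bacteria, was at 211, 132 and 128 in SAMP 25 wk, 5826, 2264 and 5857 in SAMP 5 wk and 598, 6027 and 509 in AKR 25 wk. It did not pass (log2 fold change -3.00 ± 0.77, adjusted p = 0.0636). Without AKR 25 wk replicate 2 the change was -1.85 (adjusted p = 0.0599). Reg3b was at 159, 27.3 and 47.2 in SAMP 25 wk, 6099.7, 1703 and 5106 in SAMP 5 wk and 151, 6319 and 136 in AKR 25 wk. For both lectins AKR 25 wk replicate 2 was about as high as the highest SAMP 5 wk library, and the other AKR libraries were far lower. Lcn2, a neutrophil and epithelial marker of inflammation that binds bacterial siderophores, was at 0.58, 0.34 and 0.15 in SAMP 25 wk, 10, 5.74 and 7.2 in SAMP 5 wk and 1.27, 0.56 and 3.13 in AKR 25 wk. It did not pass in SAMP 25 wk over AKR 25 wk.

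Of 20 tested epithelial chemokine and cytokine genes 2 fell. Ccl28, a chemokine for IgA plasma cells, was at 9.94, 3.96 and 7.49 in SAMP 25 wk, 37.4, 20.1 and 31.6 in SAMP 5 wk and 34.1, 24.7 and 26.6 in AKR 25 wk (-1.92 ± 0.31). Ccl25, the small intestinal chemokine for gut-homing T cells, was at 74.1, 35.3 and 46.1 in SAMP 25 wk, 144, 88.6 and 74 in SAMP 5 wk and 167, 435 and 128 in AKR 25 wk (-2.07 ± 0.43). Its adjusted p was 0.0547 without AKR 25 wk replicate 2. Both were lower in SAMP 25 wk than in every other library except that 1 SAMP 5 wk value of Ccl25, 74, was just under the highest of SAMP 25 wk. Of 18 tested tight junction genes 1 fell, Cldn2, the cation pore claudin of crypts, at 79.4, 44.9 and 88.6 in SAMP 25 wk, against 169.9, 197 and 178 in AKR 25 wk (-1.40 ± 0.26).

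Genes of absorptive enterocytes had mostly negative fold changes that shrank without AKR 25 wk replicate 2. The median of 22 tested villus enterocyte genes was -1.51 with all libraries and -0.57 without it, and 1 rose and 1 fell, against 1 and 2 without it. Fabp6, which binds bile acids inside ileal enterocytes, was at 82.2, 26 and 38.3 in SAMP 25 wk, 1261, 83.4 and 78.5 in SAMP 5 wk and 449, 11909 and 224 in AKR 25 wk. It did not pass (log2 fold change -4.58 ± 1.32). Fabp1, a fatty acid binding protein of the proximal intestine and liver, rose, at 5.83, 11.9 and 2.48 in SAMP 25 wk, 0.65, 0 and 0 in SAMP 5 wk and 0, 0.51 and 0 in AKR 25 wk (2.55 ± 0.44). Mgam, a brush border disaccharidase, was at 169, 81.2 and 113 in SAMP 25 wk, against 337, 429 and 278 in AKR 25 wk (-1.56 ± 0.29). Of 7 tested ileal bile acid genes 1 fell, Abcc3, a basolateral exporter of conjugated bile acids, at 8.23, 4.81 and 4.47 in SAMP 25 wk, 10.3, 9.27 and 11.1 in SAMP 5 wk and 26.4, 33.2 and 20.5 in AKR 25 wk. In log2 terms its change was -2.04 ± 0.25, and -1.87 without AKR 25 wk replicate 2.

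Of 32 tested xenobiotic and glutathione genes 5 fell and none rose, or 3 without AKR 25 wk replicate 2, namely Adh1, Gstm3 and Sult1b1. Adh1, an alcohol and retinol dehydrogenase, was at 13.4, 7.05 and 5.34 in SAMP 25 wk, 9.49, 10.6 and 8.08 in SAMP 5 wk and 32.3, 46.3 and 35.1 in AKR 25 wk (-2.09 ± 0.29). Gstm3, a glutathione transferase, was at 6.46, 2.82 and 2.22 in SAMP 25 wk, 4.46, 2.43 and 2.63 in SAMP 5 wk and 23.9, 21.4 and 25.6 in AKR 25 wk (-2.45 ± 0.31). In both the SAMP libraries of either age were below all AKR libraries. Of 25 tested genes of fatty acid oxidation 2 fell. Acaa2, the last enzyme of mitochondrial beta-oxidation, was at 43.4, 20.7 and 19.2 in SAMP 25 wk, 24.7, 22.5 and 22.5 in SAMP 5 wk and 144, 172 and 121 in AKR 25 wk. In log2 terms its change was -2.43 ± 0.29 in SAMP 25 wk and -2.59 in SAMP 5 wk over the same AKR libraries. Cpt1a, the carnitine transferase that admits fatty acids to mitochondria, was at 21.8, 11.6 and 15.3 in SAMP 25 wk, against 40.8, 40.1 and 26.8 in AKR 25 wk. Its adjusted p of 0.0414 became 0.132 without AKR 25 wk replicate 2. In limma 0 of 28 tested cholesterol and fatty acid synthesis genes, 0 of 32 respiratory chain genes and 0 of 36 cytosolic ribosomal protein genes passed, and 4, 5 and 0 of them had an unadjusted p under 0.05. All 32 respiratory chain genes and 35 of the 36 ribosomal protein genes had a negative fold change. Their medians were -0.49 and -0.44, against -0.15 for all tested genes, and -0.28 and -0.44 without AKR 25 wk replicate 2. Over the scalings they lay between -0.64 and -0.21 and between -0.60 and -0.08.

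Stem cell and proliferation genes showed few differences past the threshold. Of 23 tested crypt-base stem cell genes 1 rose, Prom1, a membrane glycoprotein of crypt cells, at 78.3, 76.5 and 74.9 in SAMP 25 wk, 58, 46.3 and 57.1 in SAMP 5 wk and 39.3, 28.9 and 40 in AKR 25 wk (1.08 ± 0.20). The list's median was 0.06 with all libraries and -0.25 without AKR 25 wk replicate 2, and it lay between -0.10 and 0.25 over the scalings, so it has no set direction. Olfm4, a secreted glycoprotein of these cells, was at 683, 543 and 565 in SAMP 25 wk, 1039, 919 and 832 in SAMP 5 wk and 412, 195 and 513 in AKR 25 wk. Ascl2, a Wnt-driven stem cell factor, was at 12.4, 13.6 and 13.5 in SAMP 25 wk, against 14.6, 8.9 and 18.2 in AKR 25 wk. Smoc2, another marker of these cells, was at 15.8, 15.6 and 19.9 in SAMP 25 wk, against 25, 12.9 and 26 in AKR 25 wk. None of these, nor Lgr5 with -0.32 ± 0.25, passed, and the groups overlapped in Lgr5, Ascl2 and Smoc2. In each of these the overlap came from AKR 25 wk replicate 2 alone, and AKR 25 wk replicates 1 and 3 were above every SAMP 25 wk library. Without replicate 2, 0 members of the list were called lower. The standard errors of 0.25 to 0.34 leave changes of less than about 1 on the log2 scale hard to see at this number of libraries. On simulated data with 1 spread per gene for all groups, 31% of genes changed by 1 and 89% of genes changed by 2 were recovered. Those data held no library that stood apart as AKR 25 wk replicate 2 does, so these shares may not carry over.

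Among 10 tested reserve and regenerative stem cell genes, Bmi1 (-0.12 ± 0.21), Hopx (-0.12 ± 0.24) and Clu (-0.03 ± 0.95, or -0.88 without AKR 25 wk replicate 2) did not pass, and Il33, described above, was the 1 that rose. Of 28 cell cycle genes 1 fell, the cyclin Ccnd2, at 38.7, 14.1 and 36.2 in SAMP 25 wk, against 73.8, 64.5 and 76.6 in AKR 25 wk. The call did not hold without AKR 25 wk replicate 2 (adjusted p = 0.0862). Mki67 was at 96.8, 53.2 and 77 in SAMP 25 wk, against 111, 74.8 and 94.4 in AKR 25 wk. Of the 28 cell cycle genes 27 had a negative fold change, as had 7893 of all 11789 tested genes. The list's median was -0.39, against -0.15 for all tested genes, and -0.50 without AKR 25 wk replicate 2. It lay between -0.54 and -0.19 over the scalings. Of 17 tested Notch genes 2 fell. Dll1, a ligand that secretory progenitors display, was at 1.78, 1.79 and 1.86 in SAMP 25 wk, 2.4, 1.89 and 2.34 in SAMP 5 wk and 5.22, 3.29 and 4.87 in AKR 25 wk (-0.94 ± 0.22). Nrarp, a feedback inhibitor, was at 9.7, 6.04 and 6.99 in SAMP 25 wk, against 16.4, 13.7 and 15.9 in AKR 25 wk (-0.95 ± 0.21). The Dll1 call held without AKR 25 wk replicate 2 (adjusted p = 0.0323) and the Nrarp call did not (adjusted p = 0.0538). In limma 0 of 18 tested Wnt, R-spondin and BMP genes, 0 of 7 EGF family genes and 0 of 28 autophagy genes passed, and 3, 3 and 4 of them had an unadjusted p under 0.05. Of 15 enteroendocrine genes 1 rose, the granin Chgb, at 27.5, 52.6 and 32.4 in SAMP 25 wk, 36.5, 42.6 and 44.2 in SAMP 5 wk and 21.4, 14.9 and 12.2 in AKR 25 wk. Its adjusted p was 0.043, and 0.12 without AKR 25 wk replicate 2, where Pyy, the ileal and colonic peptide YY, passed in its place at 41.1, 34.1 and 33.5 in SAMP 25 wk, against 11.8, 23.1 and 8.32 in AKR 25 wk.

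**Figure D5:**
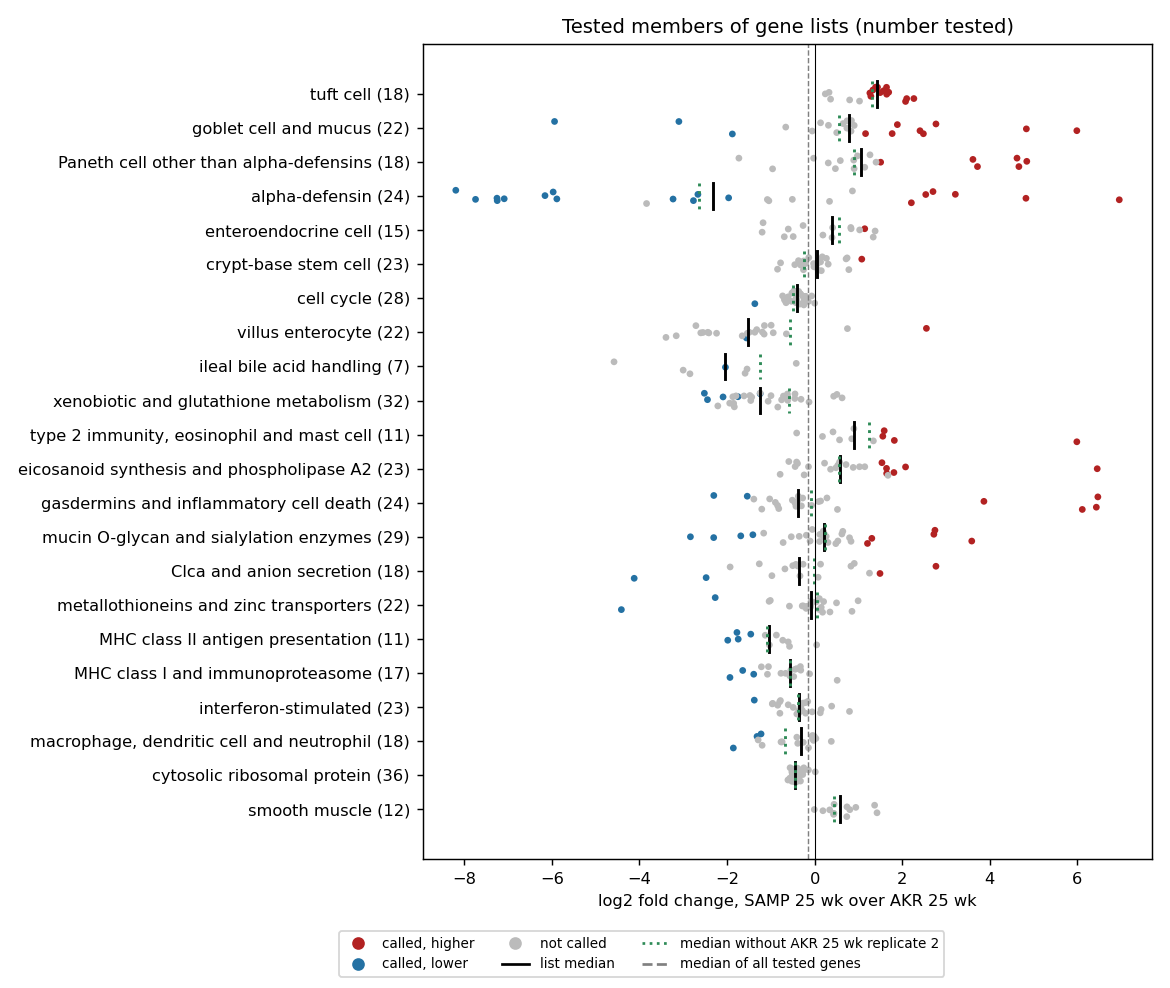
Each point is a tested member of 1 list, placed by its log2 fold change of SAMP 25 wk over AKR 25 wk, with called genes in colour, the list's median as a solid bar and the median without AKR 25 wk replicate 2 as a dotted bar. Tuft genes all lie right of 0, gasdermin C genes and defensins reach furthest out, and the enterocyte median is -1.51 with all libraries and -0.57 without that one.

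Some genes best known from liver differed widely in the niche. Apoh, a phospholipid-binding plasma protein made mainly by liver, was at 21.9, 49.1 and 46.1 in SAMP 25 wk, 2.11, 0.11 and 0.85 in SAMP 5 wk and 0.69, 1.18 and 0.62 in AKR 25 wk. This gave a log2 fold change of 4.38 ± 0.38. Cfi, complement factor I, was at 2.64, 16.8 and 4.57 in SAMP 25 wk, against 0.22, 0 and 0.06 in AKR 25 wk (2.71 ± 0.47). Rbp4, the retinol carrier, was at 18.9, 13.5 and 9.82 in SAMP 25 wk, against 1.03, 2.83 and 2.86 in AKR 25 wk (2.23 ± 0.44). Serpina10, an inhibitor of coagulation factor Xa, was the opposite, at 0.54, 0.27 and 0.64 in SAMP 25 wk, 19.7, 23.9 and 22.4 in SAMP 5 wk and 9.22, 12.5 and 14.1 in AKR 25 wk. The log2 fold change was -3.12 ± 0.21. These were the 3 rises and the 1 fall among 13 tested liver-type plasma protein genes, so no general shift of that list was seen. Fn1, fibronectin, was at 40.3, 63.5 and 44.3 in SAMP 25 wk, 12.5, 14.3 and 8.34 in SAMP 5 wk and 7.62, 4.83 and 9.16 in AKR 25 wk. It rose by 2.63 ± 0.28, the 1 call among 17 tested fibroblast and matrix genes. Smooth muscle markers, for which 0 of 12 passed in limma and 6 had an unadjusted p under 0.05, summed to 158 to 187 in SAMP 25 wk and 78.5 to 154 in AKR 25 wk, all SAMP 25 wk libraries above the AKR libraries, and the part of adjoining stroma in the Fn1 value was not tested.

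Some rows behaved as near copies of one another. Rpl37rt, a retrotransposed copy of the ribosomal protein gene Rpl37, was at 341, 205 and 295 in SAMP 25 wk, 683, 392 and 443 in SAMP 5 wk and 17.1, 17.8 and 18.5 in AKR 25 wk. Its log2 fold change was 3.87 ± 0.27. Rpl37 itself, chosen after its values were seen, was at 116, 67.4 and 96.3 in SAMP 25 wk, 216, 114 and 139.6 in SAMP 5 wk and 416, 392 and 355 in AKR 25 wk. It fell by 2.08 on the log2 scale. Ubb-ps, a pseudogene of the ubiquitin gene Ubb, was at 28.2, 14.9 and 27.8 in SAMP 25 wk, 30.5, 28.4 and 27.6 in SAMP 5 wk and 211, 267 and 206 in AKR 25 wk (-3.26 ± 0.25). Ubb was at 341, 167 and 266 in SAMP 25 wk, against 225, 264 and 212 in AKR 25 wk and did not pass. In both pairs the SAMP libraries of either age lay on 1 side of the AKR libraries in the copy, and the share of reads moved between copies was not tested. Genes present in 1 group alone were few. Sprr2a2, a near copy of Sprr2a1, was at 0, 0.01 and 0 in SAMP 25 wk, 0, 1.25 and 0 in SAMP 5 wk and 1.84, 134 and 1.01 in AKR 25 wk, so its level in AKR 25 wk came mainly from replicate 2, and it did not pass (adjusted p = 0.205). The 1.84, 1.01 and 1.25 were also the values of Sprr2a1 in the same libraries, so reads may have been shared between the copies. Btg3, an antiproliferative gene, was listed at 0 in all 3 SAMP 25 wk libraries and was at 0, 0 and 0.95 in SAMP 5 wk and 2.7, 2.36 and 3.13 in AKR 25 wk. Raet1e, a ligand of the NKG2D receptor, was listed at 0 in all 6 SAMP libraries and was at 2.48, 1.49 and 1.88 in AKR 25 wk, below the expression filter. Of the 351 called genes 23 had no usual gene name, 16 higher and 7 lower, and 8 of these were rows without any name, all higher.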

How the data were processed

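Per the file headers, the authors deposited 1 table of FPKM with 18220 rows for 9 libraries. GRCm38, STAR, Trimmomatic, HTSeq and DESeq2 are listed in the submitters' processing notes. The tool behind the FPKM and the strandedness are not given in the sources used here. RefSeq (GRCm38.p6) named 18155 rows through their gene numbers and 10 through transcripts, GENCODE links named 11 more, and 44 had no name. Count tests do not suit FPKM and none was used. Depths are estimates from the spacing of low values, of which 76.8% to 81.3% per library fell within 0.2 of whole reads where chance gives 40%, too few to recover reads.

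Groups came from strain and age. Genes averaging at least 1 FPKM in the 6 libraries were tested on log2(FPKM + 1), a pseudocount that understates changes of low genes. The test was limma 3.58.1 in R 4.3.3, two-sided, fitting the 3 group means to all 9 libraries at once, with a variance trend, 6 residual and 5.82 prior degrees of freedom, and Benjamini-Hochberg adjustment over all 11789 genes at 0.05. Errors are SE from that fit. Tables and figures used Python 3.11.15, pandas 2.3.3 and matplotlib 3.10.9. On simulated data made from the 11789 genes of this comparison, drawn independently with 1 spread per gene for all groups, 6.977% of calls were false.

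The comparison, the 41 gene lists and the rules were chosen with earlier results of these data known. Named genes come from the 15 largest rises and falls among genes with a usual name, the 10 most abundant calls, genes in 1 group alone, up to 6 called members of each list with its defining members, a fixed set, or runs of at least 3 called genes with gaps of at most 250 kb. Genes chosen after their values were seen are marked as such. Alternatives were other pseudocounts (0.1 and 5), filters, scalings, weights by library, variance settings, libraries left out, and an adjusted p of 0.1.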

Additional observations from a re-analysis of the deposited data

How the results depend on the processing

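Against 351 genes called, most settings gave counts within 1.5 times: 311 and 345 with pseudocounts of 0.1 and 5, 258 without a filter, 269 at a mean of at least 5, 365 rescaled to TPM, and 234 with the 6 compared libraries alone. Rescaling without ribosomal RNA and alpha-defensin rows gave 639, library weights 2534 (24.5% of them higher), and a threshold of 0.1 gave 552. Leaving out 1 library gave 187 to 496: 190 without AKR 25 wk replicate 1, 232 without replicate 2, and, among SAMP 25 wk libraries, 187 without the second, 195 without the third and 496 without the first, when 36.7% of calls were higher. Without AKR 25 wk replicate 2 and SAMP 25 wk replicate 3 together the count was 164, and without AKR 25 wk replicate 2 at equal medians, an alternative chosen after seeing the data, 339. The causes were not tested. Of the 351 genes, 123 were called under every one that tested them of 23 alternatives, leaving out the looser threshold and the one added later, 75 higher and 48 lower. Over 172 genes followed, 3697 values under alternatives kept their call, 555 lost it, 17 gained it, and no called gene changed sign. The medians of the crypt-base stem cell, reserve stem cell, Wnt and BMP, metallothionein, unfolded protein response and autophagy lists changed sign under a scaling. The erythrocyte list had no tested member at a mean of at least 5. At 7420000 to 8850000 estimated reads, genes near an FPKM of 1 could not be resolved finely. No paired analysis was possible because the labels give the groups no shared replicate numbers.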

Other observations

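Among epithelial transcription factors outside the lists, Vdr, Cdx1 and Isx were chosen after their values were seen. All 3 fell in SAMP 25 wk, which says nothing of such factors as a class. Vdr, the vitamin D receptor, was at 33, 24.6 and 42.9 in SAMP 25 wk, 50.3, 64.4 and 63.8 in SAMP 5 wk and 80.5, 77.8 and 84.6 in AKR 25 wk. Limma's test gave a log2 fold change of -1.28 ± 0.23 (adjusted p = 0.0095). Cdx1, a caudal homeobox factor of intestinal identity, was at 40, 37.8 and 48.9 in SAMP 25 wk, 61.2, 52.5 and 55.3 in SAMP 5 wk and 79.3, 81 and 70.8 in AKR 25 wk (-0.86 ± 0.19). Isx, an intestinal homeobox repressor of vitamin A uptake, was at 27.2, 7.81 and 13.6 in SAMP 25 wk, 42, 30.2 and 46.3 in SAMP 5 wk and 35.4, 60.6 and 41.2 in AKR 25 wk (-1.57 ± 0.37). SAMP 25 wk was the lowest group in all 3, and without AKR 25 wk replicate 2 the adjusted p was 0.0263 for Vdr, 0.0973 for Cdx1 and 0.153 for Isx. Among genes that rose and were chosen the same way, the calpain gene Capn13 was at 109, 43.1 and 42.2 in SAMP 25 wk, 6.58, 5.24 and 5.19 in SAMP 5 wk and 4.67, 5.2 and 4.77 in AKR 25 wk (3.34 ± 0.32), with SAMP 5 wk at the AKR level. Fam221a was at 12.6, 11 and 11.9 in SAMP 25 wk, 1.67, 0.98 and 2.52 in SAMP 5 wk and 0.63, 0.72 and 1.17 in AKR 25 wk (2.81 ± 0.25). Gadd45g, a stress-response gene, was at 30.4, 78.9 and 28.3 in SAMP 25 wk, 10.7, 13.9 and 16.4 in SAMP 5 wk and 3.51, 7.46 and 7.91 in AKR 25 wk (2.59 ± 0.38). Cish, a cytokine signalling inhibitor that STAT5 induces, was at 9.91, 15.1 and 8.53 in SAMP 25 wk, 4.94, 4.02 and 2.27 in SAMP 5 wk and 4.28, 1.39 and 1.99 in AKR 25 wk (1.82 ± 0.33). The growth factor Igf1 was at 10.3, 14.5 and 9.59 in SAMP 25 wk, 5.83, 4.17 and 2.07 in SAMP 5 wk and 4.82, 2.34 and 2.93 in AKR 25 wk (1.54 ± 0.31), and its adjusted p was 0.0844 without AKR 25 wk replicate 2.

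Called genes were also looked at by position. Besides the gasdermin C, defensin, class II and Clca runs, 3 neighbouring genes on chromosome 17 (chr17:5941280-6450994), Synj2, Tmem181a and Tmem181b-ps, rose out of 8 tested there, Synj2 by 0.83 and Tmem181a by 1.01 on the log2 scale. On chromosome 2 (chr2:32236590-32288136) all 3 tested genes fell, Pomt1 by 1.18, Uck1 by 0.92 and Swi5 by 1.22. Uck1 was at 5.77, 4.29 and 5.59 in SAMP 25 wk, 4.63, 3.29 and 5.11 in SAMP 5 wk and 12.2, 10.3 and 9.63 in AKR 25 wk, so both SAMP groups lay below AKR 25 wk. None of the Synj2, Tmem181a, Tmem181b-ps, Uck1 and Swi5 calls held without AKR 25 wk replicate 2. On chromosome 18, 3 of 4 tested genes of a run fell, Cd74 and Cdx1, described above, and the transporter gene Slc6a7, by 1.43. On chromosome 4 (chr4:41760443-42092930) 3 of 4 tested genes were called. The interleukin-11 receptor gene Il11ra1 rose by 1.08, and its call did not hold without AKR 25 wk replicate 2 (adjusted p = 0.0809). The chemokine gene Ccl21d fell by 1.85 and the predicted gene Gm3893 by 2.01, both at low levels. Leaving out the Y chromosome, which had 4 tested genes, the share of tested genes called per chromosome was 1.46% on the X chromosome to 5.83% on chromosome 8, and 3.04% on chromosome 8 without the defensins. Among rows without a gene name, 8 were called and all 8 rose, 3 of them described above beside the alpha-defensins. Of the others, number 493583 was at 270.2, 296 and 254 in SAMP 25 wk, 10.7, 1.85 and 2.46 in SAMP 5 wk and 11.1, 4.82 and 9.06 in AKR 25 wk, high in SAMP 25 wk alone.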
